A study of Mus musculus with 6 samples.

Results

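Transcripts of 7 genes that are best known from the B lymphocyte lineage were followed in cultures of Th17 cells, the helper T cells that make interleukin-17. The genes were the transcription factors *Ebf1* and *Pax5*, the coactivator *Pou2af1*, the antigen receptor chains *Cd79a* and *Cd79b*, the surface protein *Ms4a1* and the endoplasmic reticulum chaperone *Mzb1*. They are 7 of the 16244 genes in the deposited table and were found there by gene symbol, and each has 1 row. The group was proposed with the values of these same 6 libraries in view, so the levels, fold changes and calls of its genes are a description, with no p-values, and count as no evidence of a difference.

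Naive CD4+ T cells were enriched from mouse spleen by negative magnetic selection, activated on plates through CD3 and CD28, and polarized for 3 days under pathogenic Th17 conditions, for which the submitters name IL-6, IL-1β and IL-23, while the culture methods add TGF-β and antibodies to IL-4 and IFN-γ. The WT group holds 3 libraries from C57BL/6 mice, which the study's list of materials gives as C57BL/6NJ. The RORγtN275D group holds 3 libraries from knock-in mice on a C57BL/6 background, in which 1 asparagine of the ligand-binding domain of RORγt, the lineage factor of Th17 cells, was changed to aspartate. For these 6 libraries the labels give no sex, no age and no copy number of the knock-in allele, and the knock-in mice came from another laboratory, so that genotype and colony cannot be told apart. The study defines n only in general, as independent samples, mice or experiments, and the labels do not say which holds for the 3 libraries of a genotype, so p-values measure the spread between these libraries, which may be technical. No sort after culture is described for them, and the libraries are bulk RNA.

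Reads on genes ranged from 17659035 to 18510878 per library. The deposited values are these reads multiplied by 1 factor per library, and are called normalized reads here.

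EBF1 and PAX5 are the transcription factors that commit progenitors to the B lineage. EBF1 switches on early B cell genes, the *Cd79a* promoter being the textbook example, and PAX5 holds that identity in place until B cells become plasma cells. CD79A and CD79B are the signalling chains of the B cell antigen receptor, MS4A1 is the antigen CD20, OCA-B (the product of *Pou2af1*, also called OBF-1) joins the octamer-binding factors OCT1 and OCT2 on DNA, and MZB1 helps antibody assembly in the endoplasmic reticulum. OCA-B is also known from activated CD4+ T cells.

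*Ebf1* is gene 13591 of the table (GRCm38.p6 chromosome 11, 44618100 to 45008096, plus strand), and its annotated exons cover 9756 bases. It had 967, 995 and 995 normalized reads in the WT libraries and 1538, 1485 and 1414 in the RORγtN275D libraries. Each mutant library lay above each WT library, and the WT libraries lay within a narrow band. The means were 986 ± 16.1 in WT and 1479 ± 62.3 in RORγtN275D cells (SD, n = 3 each), which is 1.50 times as many reads in the mutant. On the scale of log2(normalized reads + 1), the fitted fold change was 0.58 (standard error 0.05). The annotation holds a gene antisense to *Ebf1*, *Gm12158*, which is not a row of the table. The related factors had almost no reads. *Ebf2*, *Ebf3* and *Ebf4* had mean normalized reads of 0.664, 0 and 0.336 in WT and of 0, 0.329 and 0.996 in mutant cells.

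*Pou2af1* (gene 18985, chromosome 9, 51213690 to 51240079, plus strand, 2549 exonic bases) went the other way. It had 929, 971 and 1048 normalized reads in the WT libraries and 436, 504 and 455 in the mutant libraries. All 3 mutant libraries lay below the WT libraries, with no overlap. The means were 983 ± 60.5 and 465 ± 34.7 (SD, n = 3 each), 2.11 times as many in WT, and the log2 fold change was -1.08 (standard error 0.06). *Pou2af1* and *Ebf1* had almost the same number of normalized reads in WT libraries, before any correction for length, and changed in opposite directions. A small transcript within a *Pou2af1* intron on the same strand, *Gm47828*, is annotated and is not a row of the table.

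*Pax5* (gene 18507, chromosome 4, 44524748 to 44710694, minus strand, 8853 exonic bases) was far lower than either, per length as well. It had 71.7, 63.6 and 65.8 normalized reads in the WT libraries and 72.9, 107 and 92.8 in the mutant libraries. The lowest mutant library stood just above the highest WT library, so the genotypes were separate only by a small margin. The means were 67.0 ± 4.19 and 91.0 ± 17.3 (SD, n = 3 each), and the log2 fold change was 0.42 (standard error 0.14). *Pax5* was on the called side of the threshold applied to all genes, but not under 7 of the 15 alternatives that could be fitted for it. Among the 7 were DESeq2, which the study's methods name, and the fits without WT replicate 2, RORγtN275D replicate 2 or RORγtN275D replicate 3. Over those 15 its log2 fold change ran from 0.25 to 0.57.

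Upstream sequence is shown for the pair of genes that hold most of the reads and moved in opposite directions, and for *Cd79a* as the known EBF1 target. Windows from the RefSeq table for GRCm38.p6 were searched for 4 of the genes (*Ebf1*, *Pou2af1*, *Pax5* and *Cd79a*), 5 windows in all. Each reached from 250 bases before a transcription start to 50 after it, and the parts outside annotated exons are printed 5′ to 3′ on the gene's strand. No window of *Cd79b*, *Ms4a1* or *Mzb1* was searched, so nothing is said here of their upstream sequence. Capitals mark exact matches, on either strand, to the motifs searched. The *Ebf1* stretch, chr11:44619978-44620227, lies before an inner start of the gene and is 250 bases long. The *Pou2af1* stretch is chr9:51213440-51213689 (250 bases), and that of *Cd79a* is chr7:24897247-24897380 (134 bases), all on the plus strand.
Ebf1: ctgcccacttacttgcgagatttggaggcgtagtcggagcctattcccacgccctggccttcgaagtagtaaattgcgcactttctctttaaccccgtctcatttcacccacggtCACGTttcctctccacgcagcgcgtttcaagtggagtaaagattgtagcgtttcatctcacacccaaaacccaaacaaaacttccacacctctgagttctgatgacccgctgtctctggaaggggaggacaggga
Pou2af1: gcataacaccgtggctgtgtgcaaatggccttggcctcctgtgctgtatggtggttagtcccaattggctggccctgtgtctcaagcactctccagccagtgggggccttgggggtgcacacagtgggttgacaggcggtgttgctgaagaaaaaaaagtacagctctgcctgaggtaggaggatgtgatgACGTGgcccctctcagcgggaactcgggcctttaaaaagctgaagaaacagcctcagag
Cd79a: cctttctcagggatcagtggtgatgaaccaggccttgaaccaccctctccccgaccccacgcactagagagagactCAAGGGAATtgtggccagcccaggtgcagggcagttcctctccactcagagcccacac

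The match in *Cd79a*, at -174 to -166 from the transcription start, is CAAGGGAAT, a form of the EBF1 site. This motif was added to the search after the sequence had been seen, and 0.244% of the 32851 RefSeq promoter windows hold it. The matches in *Ebf1* (-135 to -131), *Pou2af1* (-59 to -55) and *Pax5* (-142 to -138) are to ACGTG, the core bound by HIF factors, which 19.6% of all windows hold. No exact match was found in these windows to the EBF palindrome (TCCC, then any 2 bases, then GGGA, in 0.904% of windows), ATGCAAAT (the octamer, in 1.74%) or AGGTCA (the core bound by ROR factors, in 16.3%). A match is a description of the letters and not of a bound site.

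*Cd79a* (gene 12518, chromosome 7, 24897497 to 24901858, plus strand, 1457 exonic bases) had 11.1, 20.2 and 17.7 normalized reads in the WT libraries and 29.0, 36.1 and 29.6 in the RORγtN275D libraries. The mutant libraries all lay above the WT libraries. The means were 16.3 ± 4.69 and 31.6 ± 3.96 (SD, n = 3 each), 1.93 times as many in the mutant, and the log2 fold change was 0.94 (standard error 0.25). *Cd79b*, its partner chain (gene 15985, chromosome 11, 106311341 to 106314562, minus strand, 1431 exonic bases), had 21.2, 17.1 and 24.6 normalized reads in the WT libraries and 32.9, 36.1 and 23.7 in the mutant libraries. Here the genotypes overlapped, because RORγtN275D replicate 3 fell below WT replicate 3. The means of *Cd79b* were 21.0 ± 3.71 and 30.9 ± 6.45 (SD, n = 3 each), and the log2 fold change of 0.53 (standard error 0.23) did not pass the threshold applied to all genes. It passed in the fit without WT replicate 3 and in the fit without RORγtN275D replicate 3, and in none of its other 13 alternatives. Over all 15 its log2 fold change ran from 0.31 to 0.71.

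*Ms4a1* (gene 12482, chromosome 19, 11249679 to 11266149, minus strand, 6187 exonic bases) had 1.01, 0 and 0 normalized reads in the WT libraries and 3.99, 4.01 and 9.88 in the mutant libraries. It was under 10 in every library, and the mutant libraries lay above the WT libraries. Its mean was below the minimum of 10 normalized reads set for testing, so no fold change was fitted. The recovered reads summed to 1 over the WT and 18 over the RORγtN275D libraries, a ratio of 18.4 after scaling to the reads on genes, with an exact 95% interval of 2.90 to 765 that covers counting error only. A count of 0 in 1 library allows up to 3 reads, or 0.162 to 0.170 per 1000000 reads on genes. Of the 13 MS4A family genes in the table, 8 were below the minimum, and of the 5 tested only *Ms4a6b*, which T cells express, passed. Of all genes tested, 50.9% passed in either direction. *Ms4a6b* rose from 1129 ± 17.5 to 1320 ± 50.0 normalized reads (mean and SD, n = 3 each, log2 fold change 0.23, limma adjusted p = 0.000825).

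*Mzb1* (gene 69816, chromosome 18, minus strand, 1215 exonic bases) had 18.2, 13.1 and 21.6 normalized reads in the WT libraries and 41.9, 49.2 and 46.4 in the mutant libraries. The mutant libraries all lay above the WT libraries, by more than the spread within either genotype. The means were 17.6 ± 4.27 and 45.8 ± 3.65 (SD, n = 3 each), 2.60 times as many in the mutant, and the log2 fold change of 1.35 (standard error 0.22) was the largest increase among the 6 genes fitted. A gene on the same strand, *Spata24*, overlaps *Mzb1* in the annotation, so that the split of reads between them is uncertain. *Spata24* had 141, 134 and 132 normalized reads in the WT libraries and 158, 182 and 166 in the mutant libraries, higher in each mutant library, by a smaller factor than *Mzb1*.

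**Figure D1:**
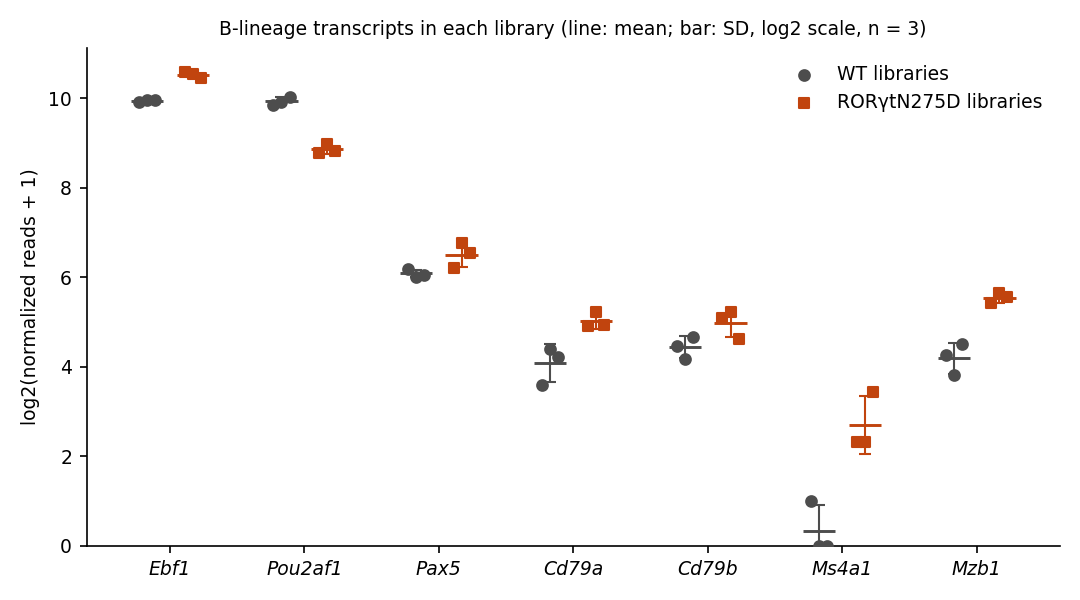
Level of each of the 7 B-lineage genes in every library, on the vertical axis as log2(normalized reads + 1). Circles are the 3 WT and squares the 3 RORγtN275D libraries, the line is the mean and the bar the SD of the log2 values. *Pou2af1* was lower in the mutant libraries, *Cd79b* overlapped, and the other 5 genes lay higher.

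Of the 6 genes whose mean reached 10 normalized reads, 4 were called higher (*Ebf1*, *Pax5*, *Cd79a* and *Mzb1*), 1 lower (*Pou2af1*) and 1 was not called, at an adjusted p under 0.05 by limma over the 11908 genes tested. All 6 also had a mean above 10 in each genotype. Calls were common in this comparison, with 50.9% of all genes tested called, 24.7% higher and 26.1% lower. At 2-fold or more, *Mzb1* was the single gene higher and *Pou2af1* the single gene lower, where 2.73% of all genes tested were called higher, 0.857% lower and 3.59% either way. The mutant libraries lay wholly above WT for the same 4 genes and wholly below for *Pou2af1*, against 28.1% and 29.6% of all genes tested. Since the 7 genes were picked from this comparison, nothing is read from these counts. The median log2 fold change of the 6 genes was 0.56, and that of all genes tested was 0.00. At a minimum mean of 100, where only *Ebf1* and *Pou2af1* are left, their median was -0.25.

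The direction of calls differed with level over the whole table. Among the 2327 genes with a mean of 10 to 100 normalized reads, where *Cd79a*, *Cd79b*, *Pax5* and *Mzb1* lie, 25.9% were called higher and 9.33% lower, and 8.85% were called higher at 2-fold. Their libraries did not overlap, with the mutant above, in 32.0% of genes and with the mutant below in 12.4%. The median log2 fold change of these 2327 genes was 0.18, and that of the genes with a mean of 100 or more was -0.02.

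**Figure D2:**
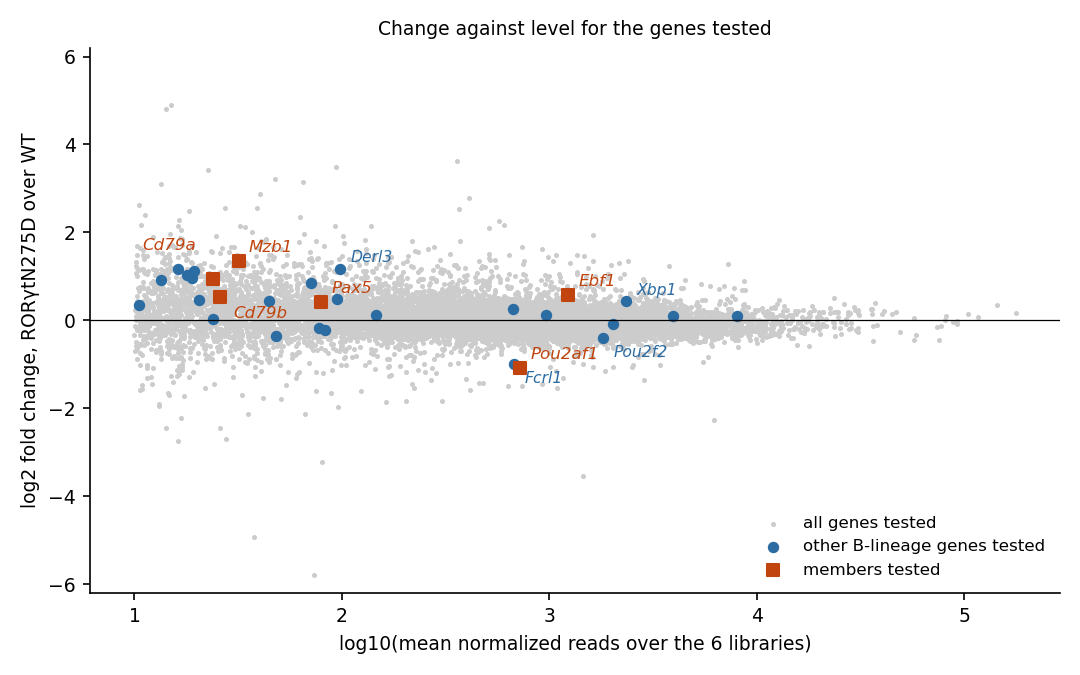
Log2 fold change of RORγtN275D over WT (vertical axis) against log10 of the mean normalized reads over the 6 libraries (horizontal axis) for the 11908 genes tested in gray. Squares are the 6 B-lineage genes fitted and blue circles the other 24 B-lineage genes tested. Among genes with over 100 mean normalized reads, *Ebf1* (0.58) lay above 0 and *Pou2af1* (-1.08) lay below 0 beside *Fcrl1* (-1.001).

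Levels can be compared between genes only per length, so they are given here as normalized reads per 1000 exonic bases and per 1000000 normalized reads, written RPKM. On this scale *Pou2af1* stood first in WT at 21.3 ± 1.24, followed by *Ebf1* at 5.58 ± 0.081 (SD, n = 3 each). *Cd79b* (0.809 ± 0.141), *Mzb1* (0.801 ± 0.192), *Cd79a* (0.618 ± 0.177) and *Pax5* (0.418 ± 0.027) came next in WT, and each of these neighbours overlapped the next over the libraries. *Ms4a1* was last, at a mean of 0.003. Only the steps from *Pou2af1* to *Ebf1*, from *Ebf1* to *Cd79b* and from *Pax5* to *Ms4a1* exceeded the spread of the WT libraries.

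In RORγtN275D libraries the order on the same scale was *Pou2af1* (10.3 ± 0.758), *Ebf1* (8.57 ± 0.356), *Mzb1* (2.13 ± 0.168), *Cd79a* (1.22 ± 0.152), *Cd79b* (1.22 ± 0.253), *Pax5* (0.581 ± 0.110) and *Ms4a1* (0.054). The only neighbours that overlapped over the mutant libraries were *Cd79a* and *Cd79b*. *Mzb1* thus moved from overlapping the receptor chains in WT to lying above them in the mutant. Of the 15625 genes with an exonic length, ranked from the highest level per length over all 6 libraries, *Pou2af1* was at place 3318 and *Ebf1* at 5837, whereas *Mzb1*, *Cd79b*, *Cd79a* and *Pax5* lay between 9287 and 10472 and *Ms4a1* at 13225.

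T cell transcripts give a frame for these levels. *Cd4* stood at 125 ± 4.12 in WT and 106 ± 0.404 in RORγtN275D cells, and *Cd3e*, a chain of the T cell receptor complex, at 18.3 ± 0.686 and 16.1 ± 1.49 RPKM (SD, n = 3 each). In WT the level of *Pou2af1* per length lay just above that of *Cd3e* in every library, and in the mutant it lay below. *Cd79a* came to 3.41 ± 1.08% of the level of *Cd3e* in WT and 7.64 ± 0.817% in RORγtN275D cells, and *Cd79b* to 4.42 ± 0.710% and 7.55 ± 0.927% (SD, n = 3 each). Both ratios were higher in every mutant library than in any WT library. The level of *Cd79b* by itself overlapped between the genotypes, so the separation of its ratio rests on the choice of *Cd3e*. *Cd3e* fell (log2 fold change -0.22, limma adjusted p = 0.00586), while *Cd3d* (0.05) and *Cd3g* (0.04) did not pass.

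**Figure D3:**
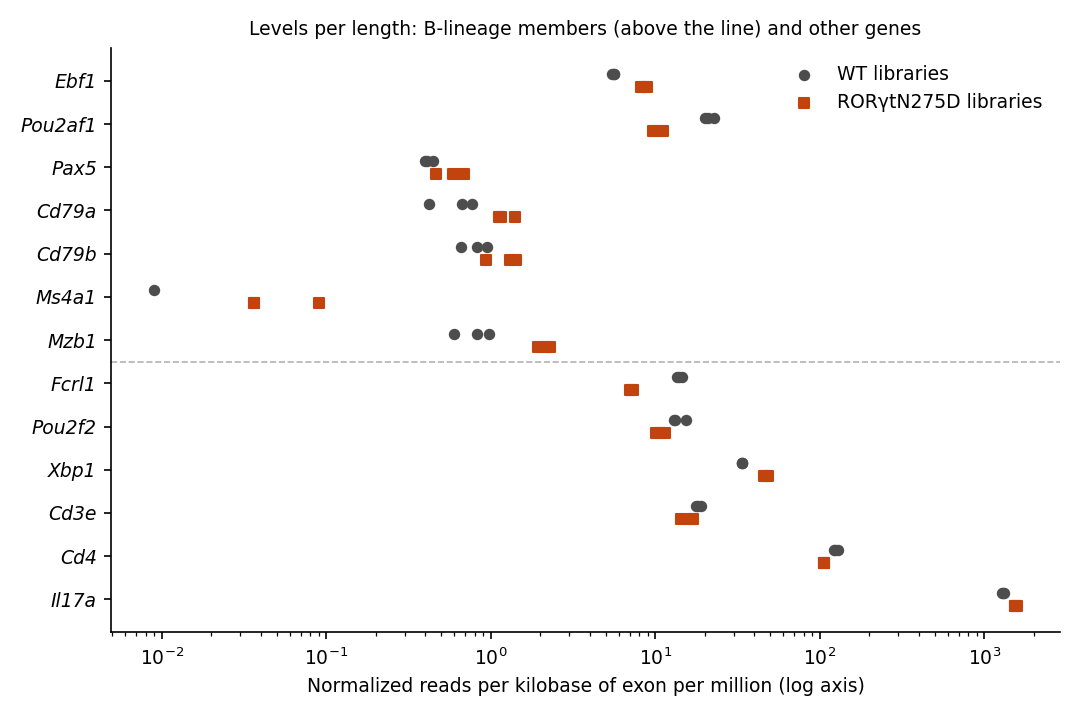
RPKM from normalized reads in each library (horizontal log axis) for the 7 B-lineage genes, above the dashed line, and 6 other genes below it. Circles are WT and squares RORγtN275D libraries, and the 2 WT libraries in which *Ms4a1* is 0 have no point. *Pou2af1* and *Ebf1* lie well above the other 5 genes, and *Ms4a1* lies far below them.

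*Pou2af1* did not keep a fixed ratio to *Ebf1*. Per length, *Pou2af1* was 3.82 ± 0.190 times the level of *Ebf1* in WT and 1.21 ± 0.109 times in mutant cells (SD, n = 3 each), with no overlap. *Ebf1* was 6.14 to 13.0 times *Cd79a* over the 6 libraries, 5.94 to 8.75 times *Cd79b* and 12.2 to 19.2 times *Pax5*, and for each of these 3 ratios the genotypes overlapped. *Cd79a* over *Cd79b* was 0.792 ± 0.329 in WT and 1.02 ± 0.186 in RORγtN275D cells (SD, n = 3 each), again overlapping.

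Summed over the 7 genes, the normalized reads hardly differed, at 2019 to 2173 in WT and 2072 to 2221 in mutant libraries, a ratio of means of 1.03. *Ebf1* held 47.2 ± 1.19% of this sum in WT and 68.8 ± 2.32% in mutant libraries, and *Pou2af1* held 47.0 ± 1.14% and 21.6 ± 1.25% (SD, n = 3 each). The sum of the other 5 genes was 122 ± 7.87 normalized reads in WT cells and 205 ± 26.1 in mutant libraries (SD, n = 3 each), ranging from 114 to 130 and from 181 to 233. The sum of the 7 genes thus changed little while its 2 largest parts moved in opposite directions.

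**Figure D4:**
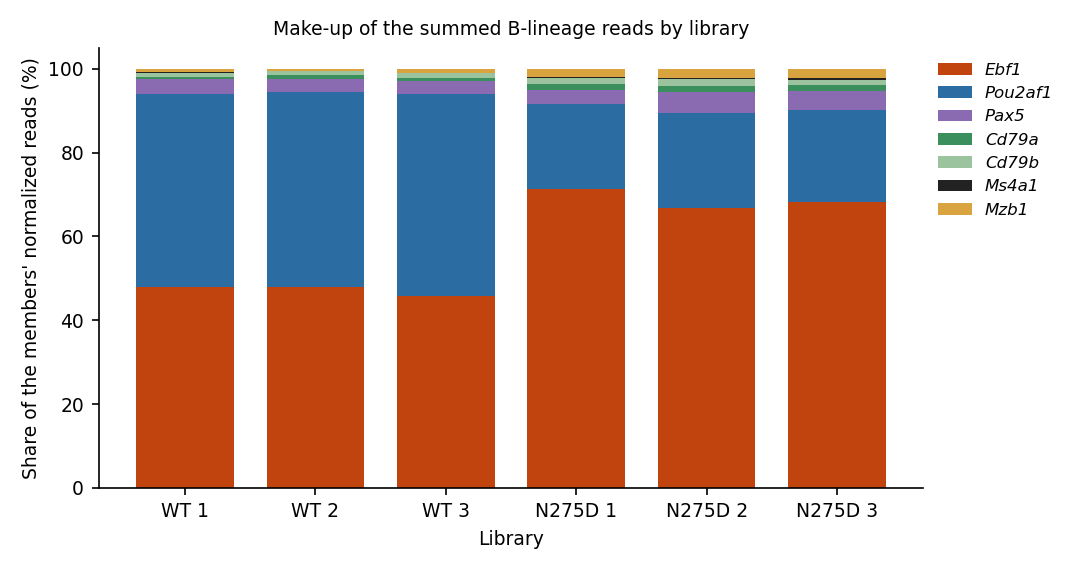
Share of each gene in the summed normalized reads of the 7 B-lineage genes (vertical axis, percent) in each of the 6 libraries. *Ebf1* takes 45.8% to 47.9% of the WT bars and 66.8% to 71.4% of the RORγtN275D bars, and *Pou2af1* takes 46.0% to 48.2% and 20.2% to 22.7%.

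The low genes rest on few reads. Recovered reads of *Cd79a* summed to 49 over the WT and 95 over the mutant libraries, those of *Cd79b* to 63 and 93, and those of *Mzb1* to 53 and 138. The variance over the mean of the recovered reads, which is 1 when counting is the only source of spread, lay between 0.239 and 3.22 for *Pax5*, *Cd79a*, *Cd79b*, *Ms4a1* and *Mzb1*. It was highest for *Pou2af1* in WT, at 5.81, where the spread between libraries was wider than counting gives.

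The name of the group was set against other genes of the B lineage, 55 in all and none among the 7. They and the lists that follow were chosen with earlier results of these data known, so their calls are no independent check. Of the 55, 39 were rows of the table and 24 had a mean of at least 10. Of these 24, 13 rose, 2 fell and 9 did not pass (limma, adjusted p under 0.05 over all genes tested), with a median log2 fold change of 0.30, beside 24.7% of all genes tested called higher and 26.1% lower. The 13 became 8 without RORγtN275D replicate 3. At a minimum mean of 100 they became 4, but that minimum also leaves fewer of the 24 genes to test. Under quantile normalization the split was 11 higher and 5 lower. At 2-fold, 4 rose, among them *Cd22*, *Blk* and *Derl3*, and 1 fell (*Fcrl1*). The listed constant chains of immunoglobulin, *Igll1*, *Rag2*, *Fcrla* and *Tnfrsf17* had no row under these symbols, so their levels could not be read. In bulk samples, fewer cells of a type and less RNA per cell cannot be told apart, and whether any of these reads came from B cells carried into the cultures was not tested.

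B cell receptor co-receptors and signalling genes had 10 members tested, of which 4 rose and 1 fell. Of all genes tested, 24.7% were called higher and 26.1% lower. *Cd22*, an inhibitory co-receptor, rose from 11.7 ± 2.24 to 27.2 ± 8.25 normalized reads (log2 fold change 1.13, adjusted p = 0.00311), and *Blk*, a Src family kinase, from 11.7 ± 3.88 to 24.3 ± 4.60 (1.02, adjusted p = 0.00658; SD, n = 3 each, limma). *Blnk*, the adaptor downstream of the receptor, named after its values were seen, rose from 12.6 ± 3.11 to 25.3 ± 2.70 (SD, n = 3 each, log2 fold change 0.97, limma adjusted p = 0.00558). *Fcrl1* had by far the most reads of this list and fell. It had 894, 932 and 884 normalized reads in the WT libraries and 464, 447 and 441 in the mutant libraries, a log2 fold change of -1.001 (standard error 0.05, limma adjusted p = 4.13e-10). Like *Pou2af1*, *Fcrl1* was well expressed and had no overlap between the genotypes. *Cd72*, *Cd40*, *Btk*, *Bank1* and *Cr2* did not pass, and *Fcer2a*, *Fcrl5*, *Cd180* and *Ly6d* had means under 10 normalized reads.

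Genes of B cell precursors were close to absent. *Vpreb1*, *Vpreb2*, *Vpreb3* and *Rag1* had means under 3 normalized reads in either genotype. The single member tested, *Dntt*, the DNA polymerase that adds bases at V(D)J joints, rose from 8.99 ± 2.62 to 17.9 ± 5.90 normalized reads (mean and SD, n = 3 each, log2 fold change 0.91, limma adjusted p = 0.0287). Its WT mean was under 10, so it passed the minimum through the mutant libraries. *Jchain*, the joining chain of antibodies, had 1.33 ± 0.552 normalized reads in WT cells and 2.99 ± 1.01 in mutant cells (SD, n = 3 each).

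Among 12 other transcriptional regulators of B cells, 6 were tested, of which 2 rose and 1, *Pou2f2*, fell. The shares over all genes tested were 24.7% higher and 26.1% lower. *Bach2* rose and had the highest mean of the list, with 3830 ± 78.3 normalized reads in WT cells and 4092 ± 108 in mutant cells (SD, n = 3 each, log2 fold change 0.10, limma adjusted p = 0.0437). *Pou2f2* encodes OCT2, a DNA-binding partner of the *Pou2af1* product. It had 1943, 1973 and 2319 normalized reads in the WT libraries and 1671, 1554 and 1481 in the mutant libraries, separate in all (log2 fold change -0.40, limma adjusted p = 5.88e-05). The other partner, OCT1, is the product of *Pou2f1*, which had 1343 ± 23.1 and 1426 ± 113 normalized reads (SD, n = 3 each, limma adjusted p = 0.214). *Bcl11a*, *Mef2b* and *Spi1*, the gene of PU.1, had means under 10.

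Of 7 plasma cell genes, 6 rose and none fell, *Tnfrsf13b* being the one that did not pass, where 24.7% of all genes tested were called higher. *Derl3*, of endoplasmic reticulum-associated degradation, had 57.5, 58.5 and 62.9 normalized reads in the WT libraries and 146, 128 and 134 in the mutant libraries, with no overlap (log2 fold change 1.18, limma adjusted p = 4.26e-07). *Irf4*, which activated T cells also use, had the highest mean, 7755 ± 212 in WT and 8360 ± 87.2 in RORγtN275D cells (SD, n = 3 each, log2 fold change 0.11, limma adjusted p = 0.0145). *Xbp1*, the factor of the secretory programme, went from 1985 ± 5.56 to 2700 ± 71.1 (SD, n = 3 each, log2 fold change 0.44, limma adjusted p = 1.66e-07). The remaining increases were those of *Fkbp11* (0.48), *Prdm1* (0.44) and *Sdc1* (0.25 on the log2 scale). *Mzb1*, also a gene of antibody-secreting cells, had a larger log2 fold change, 1.35, than these 6.

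Factors shared by early B and T cells were tested for 11 of 12 genes, of which 1 rose and 3 fell, where 50.9% of all genes tested were called in either direction and 26.1% were called lower. *Foxo1* rose (log2 fold change 0.40, adjusted p = 5.89e-06), and *Lef1* (-0.43, adjusted p = 1.26e-05), *Ikzf1* (-0.24, adjusted p = 2.35e-05) and *Runx1* (-0.15, adjusted p = 0.0310) fell, all by limma. *Ikzf1*, which encodes Ikaros, had the highest mean, with 9167 ± 180 normalized reads in WT cells and 7788 ± 85.4 in mutant cells (SD, n = 3 each). *Zfp423*, whose product can bind EBF1, had a mean of 1.00 normalized read in WT and 0.333 in mutant cells.

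Markers of other cells that a spleen culture could hold were read beside these genes. The shares to read these counts against are the 24.7% of all genes tested that were called higher and the 26.1% called lower. For markers with a mean of 10 to 100 normalized reads, the shares at that level are 25.9% and 9.33%. T cell genes were abundant, and 5 of 8 fell while 1 rose, their sum going from 42702 to 44833 normalized reads in WT to 37711 to 38860 in mutant libraries. Of 7 Th17 genes, 5 rose and 1 fell. Of 10 MHC class II genes, which B cells and other antigen-presenting cells use, 2 rose: *H2-Ab1* from 420 ± 4.43 to 866 ± 36.6 and *Cd74* from 770 ± 18.2 to 926 ± 51.2 normalized reads (SD, n = 3 each, limma adjusted p = 3.69e-10 and 0.000738). The sum of the class II genes was 1583 to 1627 in WT and 2171 to 2346 in mutant libraries.

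Of the myeloid genes, 3 of 9 were tested, and 1 rose (*Cd14*) and 1 fell (*Adgre1*, log2 fold change -1.70, limma adjusted p = 0.000512, with 22.6 and 6.64 mean normalized reads). The mutant mean of *Adgre1* was under 10, so it passed the minimum through the WT libraries. Their sum was 96.9 to 119 in WT and 109 to 139 in mutant libraries, and *Lyz2*, *Csf1r*, *Fcgr3*, *Mpo* and *S100a8* had means under 10. Of the dendritic cell genes, *Flt3* (1.02, adjusted p = 0.000389) and *Batf3* (0.36 on the log2 scale, limma adjusted p = 0.00161) rose, and *Itgax* and *Xcr1* had means under 10. The sum of this list was 330 to 416 normalized reads in WT cells and 489 to 525 in mutant libraries. For natural killer cells, both genes tested rose (*Klrd1* and *Eomes*), *Klrb1c* and *Klre1* had means under 10, and the list summed to 76.6 to 91.8 in WT and 122 to 156 in mutant libraries. *Cd8b1* rose and *Cd8a* did not pass, their sum going from 118 to 142 in WT to 172 to 179 in mutant libraries.

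Of the stromal and endothelial genes, 1 of 3 tested rose (*Pecam1*), and *Col1a2*, *Col3a1* and *Pdgfra* had means under 10, with sums of 341 to 412 in WT and 454 to 525 in mutant libraries. No erythroid or platelet gene reached the minimum. These summed to 7.07 to 9.82 normalized reads in WT cells and 27.7 to 31.9 in mutant libraries, mostly through the platelet chemokines *Pf4* and *Ppbp*. *Batf3* alone held most of the dendritic sum, with mean normalized reads of 319 in WT and 408 in mutant libraries. *Pecam1* (307 and 424) held most of the stromal and endothelial sum, and *Eomes* (56.4 and 91.7) most of the natural killer sum. Summed markers of several other cell types were thus higher in mutant libraries, as were *Cd79a*, *Mzb1* and *Ms4a1*. The sums of these lists with 1 dominant gene say little about their other markers. The part of other cell types in the B-lineage values was not tested.

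For each of the 6 genes fitted, the genes most like it were found from the root mean square difference of log2(normalized reads + 1) over the 6 libraries, each gene being taken relative to its own WT mean. Closest to *Ebf1* were *Niban1* (0.026), *Sft2d2* (0.029) and *Fez2* (0.036), and closest to *Pou2af1* were *Rxra* (0.046), *Hivep3* (0.064) and *Stra6* (0.065). *Rxra* had 2187, 2082 and 2353 normalized reads in the WT libraries and 1015, 1108 and 1027 in the mutant libraries. Among the lower genes, *Cd79b* was followed by *Fkbp9* (0.065), *Cacna1s* (0.073) and *Lhx2* (0.078), and *Pax5* by *Fam229b* (0.055), *Trim12a* (0.082) and *Amz1* (0.084). *Cd79a* was nearest to *Mgst3* (0.084), *Cxcl10* (0.111) and *Tafa3* (0.126), and *Mzb1* to *Entpd1* (0.104) and *Rhobtb1* (0.143). None of the 6 was among the 3 nearest of another. With only 3 kept of the 11908 genes tested, this does not show whether the 6 changed together.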

How the data were processed

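RNA-seq of 3 WT and 3 RORγtN275D libraries was analysed, with groups and replicate numbers taken from the labels. The study's methods describe strand-specific DNBSEQ libraries, trimming, STAR alignment to mm10, featureCounts and DESeq2, whereas in the labels poly-A selection and a different directional kit are named. The deposited signal values are gene counts that the authors scaled by 1 factor for each library, and within 1e-06 that factor gave back whole reads for 100% of values in each library. The authors' own deposited log2 fold changes and q-values, from their comparison of the genotypes, were not used.

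The 7 genes and all gene lists were chosen with earlier results of these data known. Genotypes were compared with limma (version 3.58.1, R 4.3.3; trended prior, no block) on log2(normalized reads + 1), which understates the change of low genes, for 11908 genes whose mean reached 10. Benjamini-Hochberg adjustment ran over all of them, with calls at an adjusted p under 0.05. Libraries of a genotype had a median SD of 0.08 (log2). The code was tested on simulated data. Exonic lengths and overlaps are from the GENCODE annotation of mm10, and coordinates and promoter windows from RefSeq (GRCm38.p6, the same build), where 16135 genes matched by gene number. Motifs were searched on both strands.

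Genes named are the 7 genes, the calls at 2-fold and the most abundant gene of each list, markers near 0, and the 3 genes most like each of the 6 genes fitted. Some genes that this rule names are not reported here. Alternatives were other pseudocounts and minimum levels, TMM or quantile scaling, no trend, a replicate block, each library left out in turn, and edgeR (version 4.0.16) or DESeq2 (version 1.42.0) on the recovered reads, which gave 6085 and 5078 calls. Intervals cover counting error only.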

Additional observations from a re-analysis of the deposited data

How the results depend on the processing

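The direction of each of the 6 fitted B-lineage genes was kept under the 16 alternatives fitted (15 for the 4 genes that a minimum mean of 100 removes). Since these genes were picked from the same comparison, this is a description and no sign of stability. The log2 fold changes of *Ebf1*, *Pou2af1*, *Cd79a* and *Mzb1* ran over 0.56 to 0.62, -1.14 to -1.03, 0.67 to 1.11 and 1.02 to 1.51. No pairing by replicate number was seen. The deviations of same-numbered libraries correlated at -0.05, 0.04 and -0.08, and those of libraries with different numbers at -0.05 to 0.09. A weak pairing could be missed by this check. With the replicate number as a block, 5727 genes were called against 6056 without it, and 4 of the 7 B-lineage genes were still called higher. That count was 3 under quantile normalization, without a trend, under DESeq2, without WT replicate 2 and without RORγtN275D replicate 2. It was 5 without WT replicate 3. A minimum mean of 100 leaves only *Ebf1* and *Pou2af1* of the 7 genes, so that 1 was called higher and the median log2 fold change became -0.25. It also left fewer of the other B-lineage genes to test, with 4 called higher and a median of 0.11. Quantile normalization raised the other B-lineage genes called lower from 2 to 5. Without 1 library in turn, 8 to 12 of the other B-lineage genes were called higher, against 13 with all libraries, and 8 was the count without RORγtN275D replicate 3. Genes called at 2-fold numbered 427, and 259 with a pseudocount of 10, 703 with a mean above 0 and 162 with a mean of at least 100. Of the calls at 2-fold, 76.1% were higher, and 61.4% under quantile normalization. Depth limits *Ms4a1* most, with 1 read in WT and 18 in mutant libraries.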
